A study of Mus musculus with 12 samples.

Results

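The genes of the proteasome were followed through terminal erythroid differentiation in RNA sequencing data of mouse bone marrow. Genes were taken by name (Psma to Psmg followed by a digit, pseudogenes left out) where their FPKM, a read density scaled to transcript length and library size, reached 1 in at least 3 of the 12 libraries. Of 54 names of this form, 4 were pseudogenes and 50 were not, and 48 of those passed, out of 12994 genes tested and 29838 in the table. The other two were Psma8, a testis form of an alpha subunit with at most 1.22 FPKM, and Psmb11, the thymus form of a beta subunit with at most 0.0309 FPKM.

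All libraries came from wild-type (WT) C57/BL6 male mice aged 8 weeks, with no treatment or transgene. Marrow cells without CD45, CD11b and GR1 were sorted into proerythroblasts (Pro, CD44 high and Ter119 low) and, by CD44 against forward scatter, into basophilic (Baso), polychromatic (Poly) and orthochromatic (Ortho) erythroblasts, with 3 libraries a stage. Replicates 2 and 3 of Ortho bear only the general cell type erythroblast and were placed by their titles. The labels do not say whether the 3 libraries of a stage came from separate animals, so that p-values measure the spread between libraries, which may be technical.

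The proteasome breaks down proteins tagged with ubiquitin. Its barrel-shaped core is built of rings of alpha subunits (Psma genes), which form the gate, and beta subunits (Psmb genes), of which Psmb5, Psmb6 and Psmb7 cut proteins. A cap on the end of the barrel holds a ring of ATPases (Psmc genes) that unfold the substrate, and non-ATPase subunits (Psmd genes), most of them in the lid that removes ubiquitin. In the immunoproteasome, best known from immune cells, Psmb8, Psmb9 and Psmb10 take the places of Psmb5, Psmb6 and Psmb7. Maturing red cells remove their organelles and many proteins while they fill with hemoglobin, and the ubiquitin system is known to take part in this.

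Hemoglobin transcripts took 6.98% to 10.6% of the summed FPKM in Pro libraries and 47.2% to 52.6% in Ortho libraries, and between 11964 and 12297 genes reached an FPKM of 1. The number of fragments behind the values is unknown. An FPKM depends on what else is in the library, and in bulk samples fewer cells of a type and less RNA per cell cannot be told apart. Although the gate removed CD45+ cells, all 10 neutrophil markers were tested and their summed FPKM had medians of 8261 in Pro, 13790 at Baso, 18620 at Poly and 17300 at Ortho. The sum of 9 B cell markers went from 91.3–130.8 in Pro to 209.5–264.2 in Ortho, that of 9 macrophage markers from 29.7–36.0 to 63.1–74.1 (Mertk, C1qb and C1qc under 1 FPKM in all 12 libraries) and that of 8 T and NK cell markers from 22.2–32.9 to 39.3–45.0 (Cd3e, Cd3d, Cd3g and Cd8a under 1 throughout). Cd68, Csf1r and Adgre1 carried the rise of the macrophage sum, whereas the mean of Vcam1 went from 3.03 FPKM in Pro to 2.25 in Ortho. The sum of 6 megakaryocyte markers was 68.1–122.7 in Pro and 37.1–46.3 in Ortho.

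Most genes of the alpha subunits, standard beta subunits, cap ATPases and Psmd group were lower in Baso than in Pro, and all were lower in Ortho. Higher in Ortho than in Pro were 3 of the 48 genes: Psme3, Psmb8 and Psme2b. Of the 48 genes, 41 were lower and 1 was higher in Baso than in Pro at an adjusted p under 0.05, where 42.1% of all genes were lower and 14.9% higher. In Poly, 39 were lower and 3 higher than in Pro, against 42.7% and 23.3% of all genes. In Ortho, 41 were lower and 3 higher, against 53.2% and 22.7% of all genes. A fall of at least 2-fold was found for 6 genes in Baso (8.54% of all genes), 13 in Poly (12.8%) and 29 in Ortho (23.8%). A rise of that size was found for 0 genes in Baso and in Poly (1.82% and 3.59% of all genes), also 0 at an unadjusted p under 0.05 in limma, and for 1 in Ortho (6.33%). The median log2 fold change against Pro was -0.61 at Baso, -0.81 at Poly and -1.18 at Ortho, beside -0.23, -0.20 and -0.42 for all genes tested. These 3 comparisons share the Pro libraries.

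**Figure D1:**
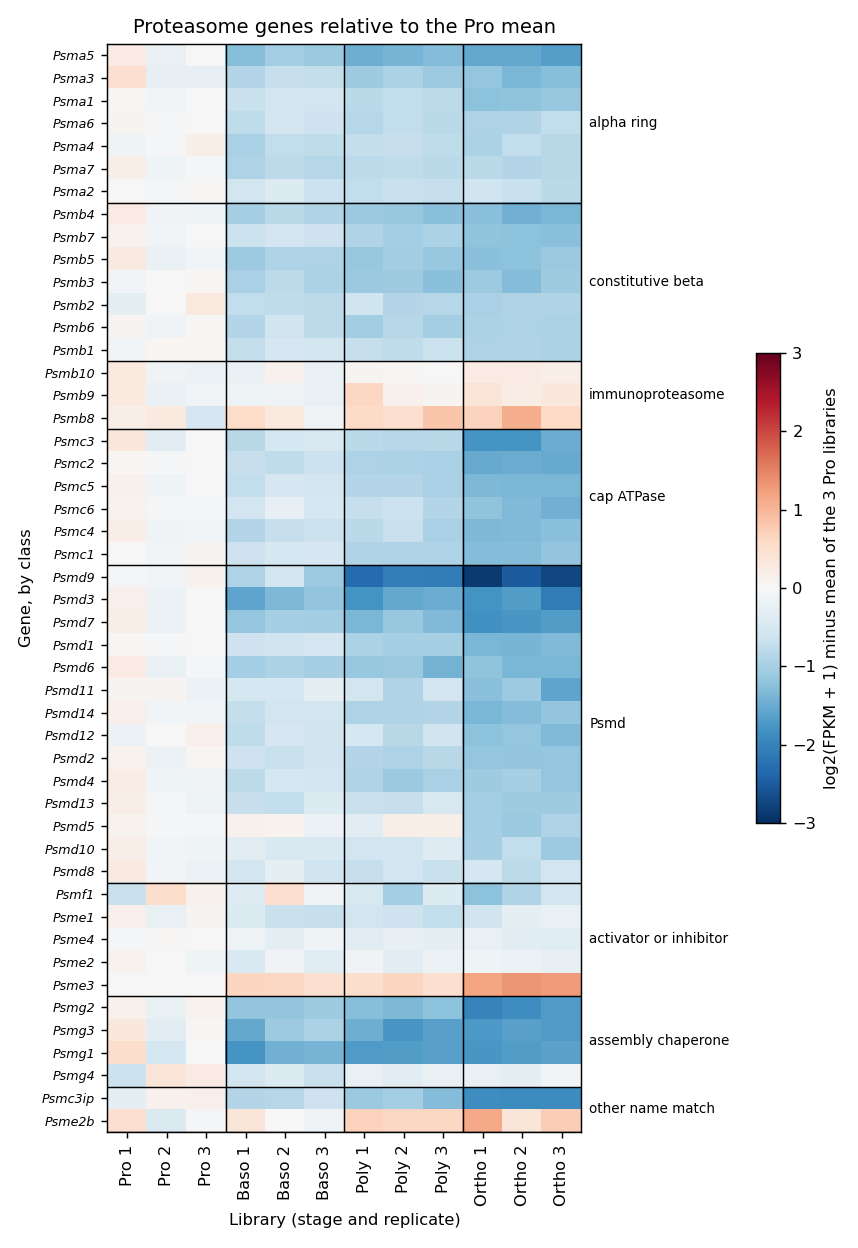
Log2(FPKM + 1) of the 48 genes (rows, grouped by class) in the 12 libraries (columns), as the difference from the mean of the 3 Pro libraries; blue is lower and red is higher. The alpha ring, constitutive beta, cap ATPase and Psmd rows are blue in nearly all Baso, Poly and Ortho libraries, whereas Psme3 and Psmb8 are red in Ortho.

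The alpha and constitutive beta subunits, the cap ATPases and the Psmd genes, 34 in all, had a summed FPKM of 3114 to 3661 in Pro, 1884 to 2112 at Baso, 1718 to 1758 at Poly and 1415 to 1443 at Ortho. The ranges of the 4 stages did not overlap. The 34 genes include Psmd5, Psmd9 and Psmd10, which are chaperones and not parts of the finished proteasome. All 34 were lower in Ortho than in Pro (median log2 fold change -1.24), beside 53.2% of all genes. In Baso and in Poly 33 of them were lower, beside 42.1% and 42.7% of all genes. The size of the fall depends on how libraries are scaled. With hemoglobin genes left out of the scaling, 33 of 34 remained lower in Ortho, with a median of -0.75, while calls over all genes were even (4468 higher and 4518 lower, against 2949 and 6908 on the values as deposited) and the median of all genes was -0.03. With each library scaled to the same sum, the median of the 34 genes was -1.60 and that of all genes -0.72.

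The largest step was the first. Between Baso and Poly, 8 of the 48 genes were lower and 0 higher (18 and 2 at an unadjusted p under 0.05 in limma), with 5.77% and 6.58% of all genes. The 40 genes that did not pass had log2 fold changes between -0.63 and 0.56. Libraries of the same replicate number moved together after Pro, and when the pairing was entered as a block for the later stages, 15 were lower and 2 higher (1226 and 1637 of all genes). Between Poly and Ortho, 21 were lower and 1 higher, with 21.7% and 4.43% of all genes.

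The core fell mainly at the first step. All 14 core genes were lower than in Pro at each later stage, with median log2 fold changes of -0.76 at Baso, -0.88 at Poly and -1.04 at Ortho. The shares of all genes lower than in Pro were 42.1%, 42.7% and 53.2%. In Poly vs. Baso 1 of 14 was lower and in Ortho vs. Poly 3 of 14, near the shares of all genes (5.77% and 21.7%). The medians of the core at these 2 steps were -0.17 and -0.13, beside 0.03 and -0.08 for all genes. Among alpha ring genes, Psma5 fell most. It had 122, 87.1 and 101 FPKM in Pro, 41.6, 49.8 and 46.6 at Baso, 36.4, 38.3 and 41.0 at Poly and 34.4, 34.4 and 31.8 at Ortho (log2 fold change Ortho vs. Pro -1.58 ± 0.11 SE, adjusted p = 2.02e-07). Psma2 fell least in this class, from 42.8 ± 1.25 FPKM (SD, n = 3) in Pro to 26.3 ± 1.90 in Ortho (-0.68 ± 0.08, adjusted p = 7.85e-06). Psmb4, a non-catalytic beta subunit, was the most abundant of the 48 genes in Pro, with 261, 204 and 204 FPKM. It stood at 92.6, 80.8 and 85.4 FPKM in Ortho, below each Pro library (-1.35 ± 0.10, adjusted p = 3.25e-07). Psmb1, also non-catalytic, fell least among the constitutive beta genes, from 149 ± 7.35 to 78.3 ± 1.40 FPKM (-0.92 ± 0.07, adjusted p = 3.77e-07).

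Subunits present once per ring differed in transcript level. Stage means of the 14 core genes ran from 42.8 (Psma2) to 223 FPKM (Psmb4) in Pro and from 26.3 (Psma2) to 86.3 FPKM (Psmb4) in Ortho, and the SD of their log2(FPKM + 1) between genes was 0.60 in Pro and 0.55 in Ortho. The 6 ATPases lay closer together, from 72.9 (Psmc6) to 161 FPKM (Psmc3) in Pro and from 28.5 to 48.8 FPKM for the same genes in Ortho, with an SD of 0.38 and 0.27.

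The catalytic subunits of the standard core fell, and none of their immunoproteasome counterparts was called lower. In Ortho vs. Pro, 53.2% of all genes were lower. Psmb5, the chymotrypsin-like subunit, had 142, 102 and 111 FPKM in Pro, 54.1, 60.8 and 60.8 at Baso, 52.4, 56.4 and 52.6 at Poly and 48.5, 49.2 and 53.5 at Ortho. Every later library was below every Pro library, and neighbouring later stages overlapped (Ortho vs. Pro -1.20 ± 0.11, adjusted p = 1.47e-06; Baso vs. Pro -0.99 ± 0.11, adjusted p = 2.14e-05). Psmb6, the caspase-like subunit, went from 128, 114 and 124 FPKM in Pro to 65.8, 79.8 and 69.9 at Baso, 58.6, 67.1 and 59.1 at Poly and 62.9, 64.1 and 62.9 at Ortho (Ortho vs. Pro -0.93 ± 0.08, adjusted p = 1.36e-06). Psmb7, the trypsin-like subunit, fell at each step without overlap between stages, from 140, 122 and 129 FPKM in Pro to 83.4, 86.8 and 84.3 at Baso, 69.5, 63.4 and 66.7 at Poly and 56.1, 54.7 and 54.3 at Ortho (Ortho vs. Pro -1.23 ± 0.07, adjusted p = 2.94e-08).

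Psmb8, which replaces Psmb5, had 28.2, 30.3 and 16.8 FPKM in Pro, 36.0, 30.0 and 22.5 at Baso, 36.5, 34.9 and 44.2 at Poly and 39.9, 53.0 and 37.5 at Ortho. The Ortho libraries were all above the Pro libraries, with Baso overlapping both neighbours (Ortho vs. Pro 0.79 ± 0.22, adjusted p = 0.00707; Poly vs. Pro 0.63 ± 0.22, adjusted p = 0.0266). This rise was not past the threshold with each library scaled to the same sum (0.43, adjusted p = 0.0889) and was larger with hemoglobin left out of the scaling (1.27, adjusted p = 0.00057). Without replicate 3 of Pro, which held the lowest Psmb8 value, or replicate 3 of Poly, the highest of its stage, the Poly difference missed the threshold (0.38, adjusted p = 0.115, and 0.53, adjusted p = 0.0905).

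Psmb9, which replaces Psmb6, had 22.9, 15.7 and 17.4 FPKM in Pro, 16.5, 17.0 and 15.7 at Baso, 28.7, 20.4 and 19.5 at Poly and 24.3, 21.5 and 23.2 at Ortho. Its Ortho vs. Pro difference did not pass (0.30, 95% confidence interval -0.03 to 0.64, adjusted p = 0.0862), although it did without replicate 1 of Pro (0.45, adjusted p = 0.014) or replicate 1 of Poly (0.30, adjusted p = 0.0378), and turned to -0.05 with libraries scaled to the same sum. Psmb10, which replaces Psmb7, had 25.4, 19.0 and 18.3 FPKM in Pro, 17.9, 22.9 and 17.6 at Baso, 21.9, 21.3 and 20.7 at Poly and 24.8, 24.8 and 23.7 at Ortho, with overlap between Pro and Ortho (0.23, interval -0.04 to 0.50, adjusted p = 0.108; without replicate 1 of Pro 0.37, adjusted p = 0.00766; -0.12 with libraries scaled to the same sum). With hemoglobin left out of the scaling, all 3 immunoproteasome genes were higher in Ortho than in Pro, with a median of 0.77. Under this scaling 4468 of the 12994 genes were higher, and the median of all genes was -0.03.

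**Figure D2:**
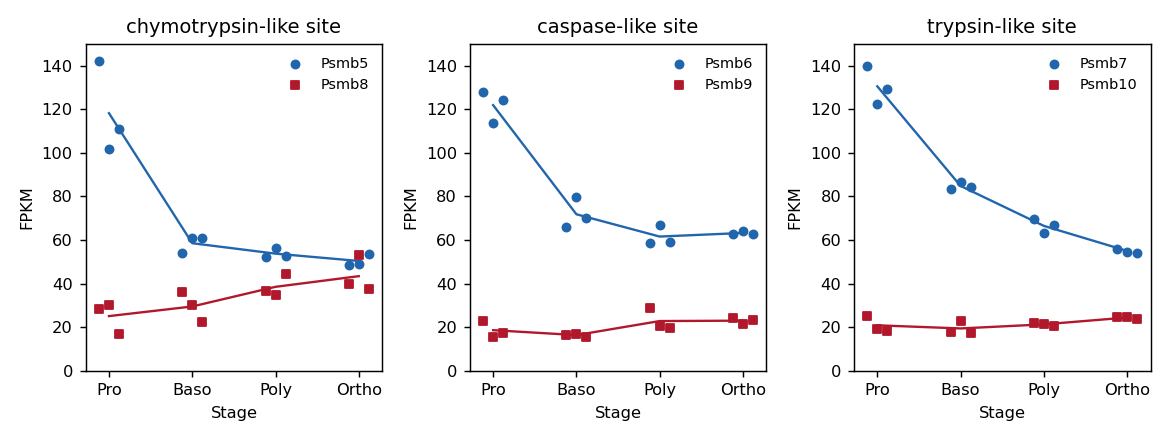
FPKM of each constitutive catalytic subunit (blue circles) and its immunoproteasome counterpart (red squares) in the 3 libraries of each stage; lines join the stage means. The blue points fall from over 100 FPKM in Pro to under 65 in Ortho, and the red points stay between 15 and 55, with Psmb8 meeting Psmb5 in Ortho.

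A ratio of 2 genes within a library is nearly free of the library's scaling, so that the 3 pairs were compared across stages as log2 ratios. The Psmb8/Psmb5 ratio rose from -2.22 ± 0.47 (SD, n = 3) in Pro to -0.99 ± 0.41 at Baso, -0.48 ± 0.22 at Poly and -0.23 ± 0.31 at Ortho, or on the linear scale from 0.152–0.298 in Pro to 0.700–1.08 at Ortho (exact permutation test across the 4 stages, p = 0.00104, adjusted over the 3 pairs 0.00104). The Psmb9/Psmb6 ratio was -2.66 ± 0.20, -2.06 ± 0.12, -1.41 ± 0.35 and -1.42 ± 0.10 from Pro to Ortho (exact p = 0.000649, adjusted 0.000974), with Poly and Ortho equal within their spread. The Psmb10/Psmb7 ratio was -2.60 ± 0.17, -2.08 ± 0.17, -1.60 ± 0.06 and -1.14 ± 0.03, with no overlap between any of the stages. Its exact p of 6.49e-05 (adjusted 0.000195) is the smallest that the 15400 divisions of the libraries can give. Between Pro and Ortho the ratios rose by 1.99, 1.24 and 1.46 on the log2 scale. The median sums of B cell and macrophage markers were higher at each later stage, and that of neutrophil markers was higher up to Poly (18620) and then 17300 at Ortho. Their part in these ratios was not tested.

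Of 11 other genes of antigen processing, 2 were higher and 3 lower in Ortho than in Pro, where 22.7% of all genes were higher and 53.2% lower. Their median log2 fold change was -0.05, beside -0.42 for all genes. Tap1 and Tap2, which carry peptides into the endoplasmic reticulum, had differences of -0.09 (adjusted p = 0.545) and -0.28 (adjusted p = 0.17), which turned to 0.37 (adjusted p = 0.0296) and 0.19 (adjusted p = 0.344) with hemoglobin left out of the scaling, and were lower with libraries scaled to the same sum (-0.44, adjusted p = 0.0115, and -0.63, adjusted p = 0.00873). B2m, the light chain of class I molecules, had 535 ± 78.7 FPKM in Pro and 556 ± 43.3 in Ortho (0.06, adjusted p = 0.633). It was called lower with libraries scaled to the same sum (-0.30, adjusted p = 0.0402) and higher with hemoglobin left out (0.56, adjusted p = 0.000772) or centred on the median (0.46, adjusted p = 0.00341). On mm10, Psmb9 (chr17:34181987-34187764), Tap1 (chr17:34187553-34197225), Psmb8 (chr17:34197721-34201454) and Tap2 (chr17:34203527-34216321) are neighbours. Psmb9 and Tap1 start on opposite strands and share 212 exonic bases, 5.79% of the exonic length of Psmb9. Psmb8 shares 14.7% of its exonic bases with Gm20496 and Psmb7 11.8% with Nek6, both on the other strand. Psmb5 shares 12.1% with Mir686 on the same strand. Whether the counting used strand is not given in the sources used here. Psmb10 lies apart, at chr8:105935735-105938444.

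The cap ATPases fell again at the end of differentiation. All 6 were lower than in Pro at each later stage, with medians of -0.61 at Baso, -0.87 at Poly and -1.34 at Ortho. Of all genes, 42.1%, 42.7% and 53.2% were lower at these stages. All 6 were also lower in Ortho than in Poly (median -0.53, beside -0.13 for the core and -0.08 for all genes), where 21.7% of all genes were lower. They were also lower at this step under each of the 3 other scalings. A 2-fold fall between Pro and Ortho was passed by all 6, against 7 of 14 core genes and 23.8% of all genes. Psmc3 fell most, from 198, 124 and 160 FPKM in Pro to 87.7, 110 and 113 at Baso, 90.0, 87.3 and 88.8 at Poly and 45.7, 44.8 and 56.0 at Ortho. Its Ortho libraries lay below all others (Ortho vs. Pro -1.68 ± 0.16, adjusted p = 1.71e-06; Ortho vs. Poly -0.86 ± 0.16, adjusted p = 0.00136). The other 4 ATPases had Ortho vs. Pro differences within these limits, and Psmc1 fell least, with 107, 101 and 112 FPKM in Pro and 42.9, 42.5 and 46.1 in Ortho (-1.26 ± 0.06, adjusted p = 2.25e-08).

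The ATPases were also set against the core within each library. The median ATPase minus the median core gene, on the log2(FPKM + 1) scale, was -0.33 ± 0.03 (SD, n = 3) in Pro, -0.24 ± 0.07 at Baso, -0.30 ± 0.04 at Poly and -0.70 ± 0.02 at Ortho. The Ortho libraries lay between -0.71 and -0.68, apart from all other libraries (-0.37 to -0.20). The lid was also lowest in Ortho, at -0.52 ± 0.06, -0.68 ± 0.12, -0.62 ± 0.05 and -0.87 ± 0.02. The immunoproteasome genes moved toward the core, from -2.53 ± 0.18 in Pro to -1.22 ± 0.04 in Ortho. These differences of medians are a description and were not tested.

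**Figure D3:**
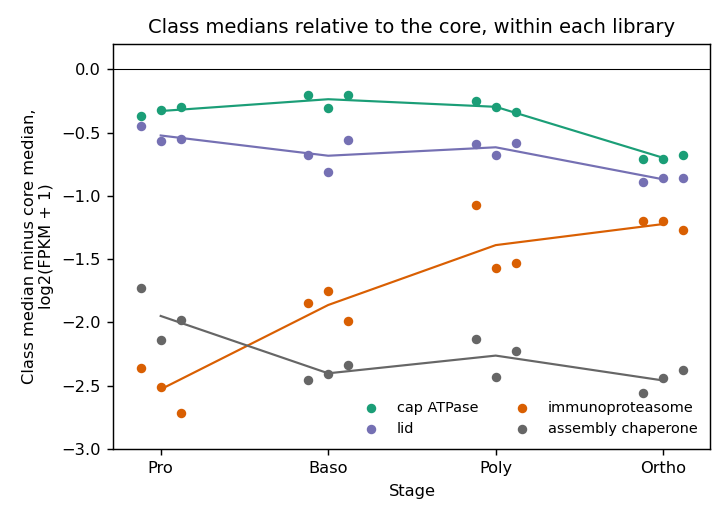
Median log2(FPKM + 1) of the cap ATPases, the lid, the immunoproteasome genes and the assembly chaperones minus the median of the 14 core genes, by library (points) and stage mean (lines). The ATPase points drop from about -0.3 to -0.70 in Ortho, and the immunoproteasome points climb from -2.53 to -1.22.

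Psmd genes fell with the cap. All 14 were lower in Ortho than in Pro (median -1.26), 12 of them by at least 2-fold, beside 53.2% and 23.8% of all genes. In Ortho vs. Poly 10 of 14 were lower, beside 21.7% of all genes. With hemoglobin left out of the scaling, 5 of 14 were lower at that step, beside 2108 of the 12994 genes. Psmd1, Psmd2 and Psmd4 belong to the base of the cap, Psmd1 and Psmd2 as scaffolds and Psmd4 as a ubiquitin receptor. Psmd1 had 80.7, 77.7 and 79.6 FPKM in Pro and 30.1, 29.3 and 31.1 in Ortho (-1.37 ± 0.06, adjusted p = 7.79e-09). Psmd2 fell from 95.7 ± 9.48 to 42.0 ± 0.32 FPKM (-1.17 ± 0.07, adjusted p = 9.06e-08) and Psmd4 from 87.0 ± 12.8 to 40.5 ± 2.31 FPKM (-1.08 ± 0.11, adjusted p = 3.41e-06). The 8 lid genes had medians of -0.62 at Baso, -0.78 at Poly and -1.30 at Ortho. Psmd3 fell most among lid genes, with the largest part at the first step, from 127, 102 and 115 FPKM in Pro to 37.6, 44.1 and 49.4 at Baso, 32.3, 38.5 and 40.2 at Poly and 32.4, 34.8 and 25.7 at Ortho (Baso vs. Pro -1.37 ± 0.14, adjusted p = 1.08e-05; Ortho vs. Pro -1.86 ± 0.14, adjusted p = 2.71e-07). Psmd8, also in the lid, fell least, from 121, 94.1 and 87.9 FPKM in Pro to 70.6, 57.4 and 66.7 in Ortho (-0.62 ± 0.13, adjusted p = 0.000877), and it missed the threshold with hemoglobin left out of the scaling (-0.13, adjusted p = 0.367).

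Psmd5, Psmd9 and Psmd10 are not parts of the finished proteasome but chaperones that help build the base of the cap, and each had its own course. Psmd9 had the largest fall of all 48 genes, with 65.2, 62.9 and 73.7 FPKM in Pro, 35.1, 45.5 and 30.8 at Baso, 12.7, 15.2 and 14.8 at Poly and 8.35, 11.1 and 9.22 at Ortho. No stages overlapped, and the steepest step was from Baso to Poly (-1.31 ± 0.14, adjusted p = 0.000491), the largest fall of the 48 genes at that step. Over the whole course it fell 6.49-fold on the FPKM + 1 scale (-2.70 ± 0.14, adjusted p = 2.73e-08). In the annotation 25.5% of its exonic bases overlap Gm26745, a long non-coding RNA on the other strand, whose reads could not be told apart without strand.

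Psmd5 had 20.5, 18.1 and 18.3 FPKM in Pro, 20.9, 20.4 and 16.8 at Baso and 14.6, 21.8 and 21.5 at Poly, which overlapped, and then 8.77, 8.16 and 9.51 at Ortho, below all others. It was the only Psmd gene not lower in Baso or Poly, and its fall came at the last step (Ortho vs. Poly -1.03 ± 0.14, adjusted p = 0.000161). Psmd10 went from 21.7 ± 2.97 FPKM in Pro to 15.9 ± 0.77 at Baso, 14.9 ± 1.26 at Poly and 10.8 ± 1.48 at Ortho (Ortho vs. Pro -0.95 ± 0.11, adjusted p = 1.41e-05).

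Of the 4 chaperones that assemble the core, 3 were lower in Ortho than in Pro, beside 53.2% of all genes. Psmg1, which pairs with Psmg2 to build the alpha ring, had 39.4, 18.6 and 27.0 FPKM in Pro, 7.30, 9.40 and 9.78 at Baso, 7.68, 7.77 and 8.12 at Poly and 7.41, 7.87 and 8.24 at Ortho. It fell most of the 48 genes in Baso (-1.53 ± 0.20, adjusted p = 7.71e-05), and the 3 later stages overlapped (Ortho vs. Pro -1.67 ± 0.20, adjusted p = 1.57e-05). Psmg2 had 40.7 ± 5.42 FPKM in Pro, 17.8 ± 1.01 in Baso and 10.5 ± 1.27 in Ortho (Ortho vs. Pro -1.85 ± 0.11, adjusted p = 4.98e-08). Psmg3, which works in a pair with Psmg4, fell from 32.3 ± 7.55 to 9.14 ± 0.32 FPKM (-1.69 ± 0.17, adjusted p = 4.01e-06). Psmg4 had 11.7, 25.1 and 22.5 FPKM in Pro and 16.0, 15.1 and 17.7 in Ortho, within the Pro range. Its difference did not pass (-0.20, interval -0.67 to 0.26, adjusted p = 0.405) and turned to 0.26 with hemoglobin left out of the scaling. It passed without replicate 1 of Pro (-0.52, adjusted p = 0.000907) and with libraries scaled to the same sum (-0.55, adjusted p = 0.027).

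**Figure D4:**
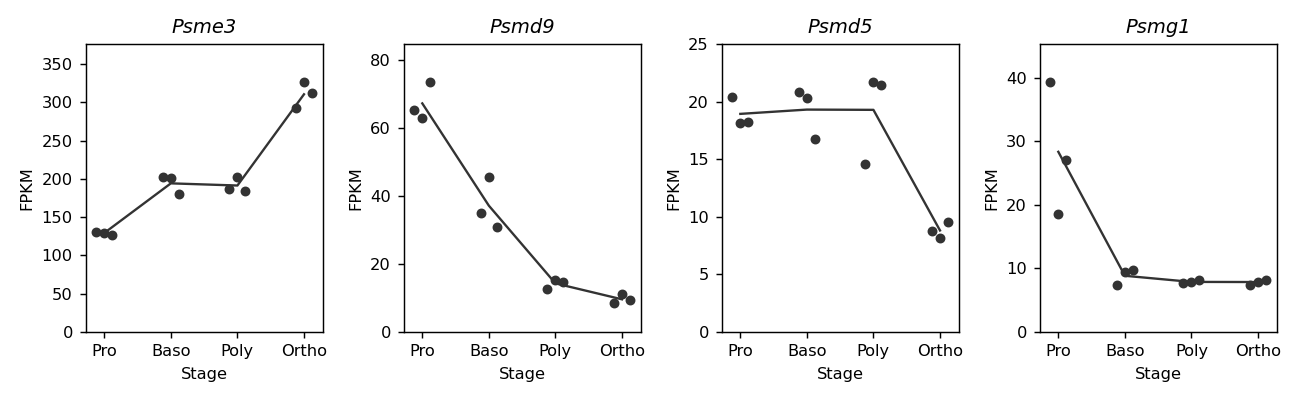
FPKM of Psme3, Psmd9, Psmd5 and Psmg1 in the 3 libraries of each stage (points), with lines through the stage means and each axis starting at 0. Psme3 rises to 292–327 in Ortho, Psmd9 falls at every step, Psmd5 falls between Poly and Ortho only, and Psmg1 falls between Pro and Baso.

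Of the activators and inhibitor, Psme3 alone was higher in Ortho than in Pro on the values as deposited, beside 22.7% of all genes. With hemoglobin left out of the scaling 2 of 5 were higher, beside 4468 of the 12994 genes. Psme3, whose ring of subunits opens the core in the nucleus without ubiquitin or ATP, had 131, 130 and 127 FPKM in Pro, 202, 200.5 and 180 at Baso, 187, 202 and 184 at Poly and 292, 327 and 312 at Ortho. It stood above every Pro library from Baso on, held level between Baso and Poly and rose again in Ortho without overlap. The log2 fold change was 0.58 ± 0.07 in Baso vs. Pro (adjusted p = 4.03e-05), 0.70 ± 0.07 in Ortho vs. Poly (adjusted p = 1.57e-05) and 1.26 ± 0.07 in Ortho vs. Pro (adjusted p = 3.91e-08), the largest rise of the 48 genes. It was the most abundant of the 48 genes from Baso on, and kept its direction and call in Ortho vs. Pro with libraries scaled to the same sum (0.89) and with hemoglobin left out (1.75).

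Psme1 and Psme2, which build the interferon-inducible activator together, lie next to each other on chromosome 14 with 5911 bases between them. Psme1 had 78.4, 60.3 and 74.5 FPKM in Pro and 46.2, 58.1 and 60.7 in Ortho, with overlap (-0.36 ± 0.13, adjusted p = 0.0211), and lost the call without replicate 1 of Ortho (adjusted p = 0.0964), replicate 1 of Pro (0.0775) or replicate 3 of Pro (0.0657). Psme2 went from 58.2 ± 4.93 to 50.9 ± 2.07 FPKM (-0.19, interval -0.42 to 0.04, adjusted p = 0.114). Psme4, an activator linked to histone breakdown, fell from 18.7 ± 0.55 to 15.0 ± 0.76 FPKM (-0.30 ± 0.07, adjusted p = 0.00231). With hemoglobin left out of the scaling these 3 differences turned to 0.12, 0.29 and 0.16, of which that of Psme2 passed (adjusted p = 0.0253). With libraries scaled to the same sum, Psme2 was called lower (-0.55, adjusted p = 0.000481). Psmf1, an inhibitor of the core, varied widely between libraries, with 35.1, 81.2 and 61.0 FPKM in Pro and 23.2, 29.6 and 37.8 in Ortho (-0.89 ± 0.31, adjusted p = 0.0213), and lost the call without replicate 1 of Ortho (adjusted p = 0.0813) or replicate 2 (0.0948) or 3 (0.0611) of Pro. Psmf1 was also not past the threshold with hemoglobin left out of the scaling (-0.41, adjusted p = 0.253), centred on the median (-0.50, adjusted p = 0.181) or with no filter (adjusted p = 0.0743).

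**Figure D5:**
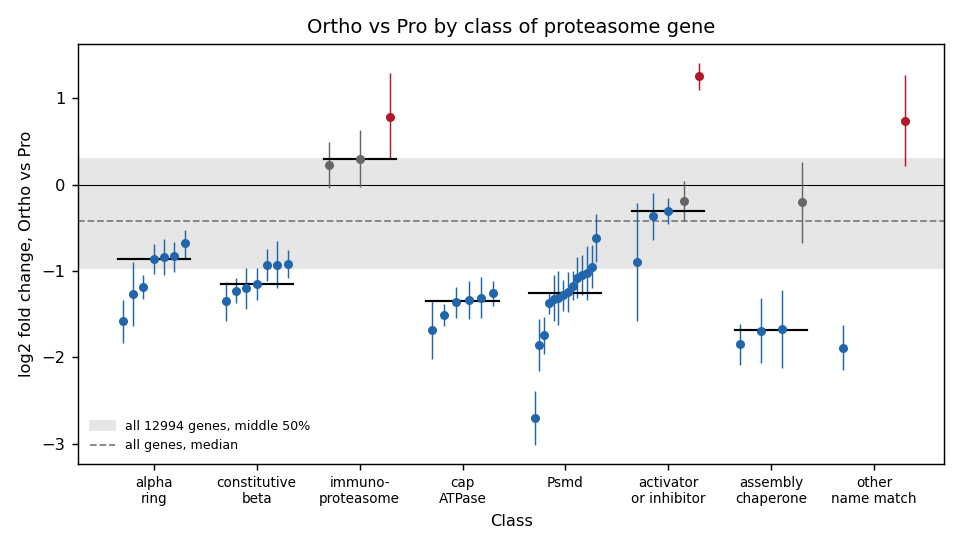
Log2 fold change of each of the 48 genes in Ortho vs. Pro by class, with 95% confidence intervals; red points are higher and blue points lower at an adjusted p under 0.05, grey points did not pass, black bars are class medians, and the grey band and dashed line are the middle 50% and the median of all 12994 genes. All cap ATPase points lie between -1.68 and -1.26, and Psme3 lies at 1.26.

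Of the 48 genes, 15 share some exonic bases with another gene in the annotation, and 2 at least 20% of them, Psmd9 and Psmc3ip. Psmc3ip and Psme2b bear the name form without being established subunits. Psmc3ip, a recombination factor that binds Psmc3, fell from 25.6 ± 4.08 to 6.12 ± 0.16 FPKM (-1.89 ± 0.12, adjusted p = 9.06e-08), with 21.2% of its exonic bases shared with Mlx on the other strand. Psme2b, a single-exon copy of Psme2, had 2.81, 0.99 and 1.60 FPKM in Pro and 4.93, 2.46 and 3.51 in Ortho (0.74 ± 0.24, adjusted p = 0.0145). These ranges overlapped, the call was lost without replicate 1 of Ortho (adjusted p = 0.0667) or replicate 2 of Pro (0.065) or with libraries scaled to the same sum (0.49, adjusted p = 0.0978), and reads of the copy and of Psme2 may have been exchanged, so that its value is uncertain.

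Genes of proteins that work with the proteasome were taken from a separate list. Of 29 such genes, 23 were lower and 4 higher in Ortho than in Pro (median -0.72), beside 53.2% lower and 22.7% higher of all genes (median -0.42). With hemoglobin left out of the scaling, 11 were lower and 7 higher (median -0.24), beside 4518 and 4468 of the 12994 genes (median -0.03). Adrm1, a ubiquitin receptor of the cap, had 51.5, 59.9 and 62.1 FPKM in Pro and 21.7, 21.4 and 25.7 in Ortho (-1.30 ± 0.10, adjusted p = 5.11e-07). Of the deubiquitinases bound to the cap, Uchl5 fell by 1.03 and Usp14 by 0.67 on the log2 scale (adjusted p = 7.76e-07 and 2.13e-05). Sem1, a small lid subunit, had 115, 63.5 and 58.4 FPKM in Pro and 51.9, 45.1 and 51.1 in Ortho (-0.60 ± 0.19, adjusted p = 0.014). Pomp, which matures the core, had 65.1 ± 13.1 FPKM in Pro, 31.7 ± 4.78 in Baso and 31.8 ± 0.81 in Ortho (Ortho vs. Pro -0.99 ± 0.13, adjusted p = 3.33e-05). Usp14 and Sem1 did not pass with hemoglobin left out of the scaling (-0.18, adjusted p = 0.101, and -0.12, adjusted p = 0.614).

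The largest differences of this list were those of Ubb, Txnl1 and Ubqln4. Ubb, a polyubiquitin gene, had 374, 519 and 514 FPKM in Pro, 755, 733 and 684 at Baso, 768, 751 and 722 at Poly and 1291, 1175 and 1234 at Ortho, with every later library above Pro (1.41 ± 0.11, adjusted p = 5.89e-07). Txnl1, a thioredoxin-like protein of the cap, fell by 1.41 and Ubqln4, a shuttle factor, by 1.32 on the log2 scale (adjusted p = 6.67e-08 and 4.33e-08). Among other genes that rose were Zfand5, a zinc finger protein that binds the proteasome, from 34.3 ± 1.53 to 72.9 ± 4.05 FPKM (1.07 ± 0.10, adjusted p = 2.61e-06), and Nfe2l1. Nfe2l1, a transcription factor that activates proteasome genes when the proteasome is inhibited, had 5.13, 5.69 and 6.41 FPKM in Pro and 10.2, 14.4 and 9.95 in Ortho (0.88 ± 0.32, adjusted p = 0.0267). It was not past the threshold with libraries scaled to the same sum (0.55, adjusted p = 0.14) or without replicate 2 of Ortho (0.72, adjusted p = 0.0949) or replicate 1 (0.81, adjusted p = 0.0714) or 2 (0.87, adjusted p = 0.0568) of Pro.

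Because most members fell together, the 250 bases before their RefSeq start sites (GRCm38.p6) were read for the core of the antioxidant response element, TGACNNNGC, which Nfe2l1 and Nfe2l2 bind, and for the core of the interferon-stimulated response element, GAAANNGAAA, on both strands. Of the 48 genes, 41 had a promoter in the reference. The first motif was found in 5 of these 41 genes (12.2%), beside 11.5% of all genes with a promoter, of which 2 encode catalytic subunits (Psmb5 and Psmb6). The second was found in 3 (7.32%, beside 3.46% of all genes), none of them an immunoproteasome gene. The motifs shared no site, and a match describes letters only. The matches nearest to a start site, those of Psmb5, Psmb6 and Psmd9, are shown on the strand of the gene, with the motif in capitals and up to 10 bases on each side.
Psmb5, chr14:54618024-54618052, minus strand, motif starting 47 bases before the start site: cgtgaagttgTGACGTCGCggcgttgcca
Psmb6, chr11:70525338-70525356, plus strand, 9 bases before: ctaaagagagTGACGGAGC
Psmd9, chr5:123228149-123228177, plus strand, 31 bases before: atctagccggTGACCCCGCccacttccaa
The other two matches to this motif, further from the start, were in Psmc6 and Psmd12, on the opposite strand. The second motif was found in Psmb3 and Psmd4 on the opposite strand and in Psmd9 on its own strand.
Psmb3, chr11:97703261-97703290, plus strand, 163 bases before: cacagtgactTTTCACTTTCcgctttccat
Psmd4, chr3:95042675-95042704, minus strand, 80 bases before: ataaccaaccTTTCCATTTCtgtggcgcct
Psmd9, chr5:123228021-123228050, plus strand, 159 bases before: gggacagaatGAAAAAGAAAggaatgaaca
Psmd9 held both motifs, and Psmb8, Psmb9 and Psmb10 held neither in these windows. Whether the motifs bear on the expression of these genes was not tested.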

How the data were processed

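Per the labels and the study's methods, RNA of sorted erythroblasts was sequenced, and the authors trimmed reads with Cutadapt and Trimmomatic, aligned them to mm10 with HISAT2, counted them with SAMtools and featureCounts and deposited FPKM per gene and library. Tool versions, the annotation release and the tool that made the FPKM are not given in the sources used here. The labels name a Trizol extraction with a NEBNext Ultra kit, the methods a KAPA Hyper Prep kit.

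Members and lists were chosen with earlier results of these data known. All 12 libraries entered 1 limma model (version 3.58.1, R 4.3.3) of log2(FPKM + 1) with a variance trend, on the 12994 genes that reached 1 FPKM in 3 or more libraries, with two-sided tests and Benjamini-Hochberg adjustment over these genes. Fold changes are on the log2(FPKM + 1) scale, which understates changes of low genes, and a gene passed at an adjusted p under 0.05. The 3 catalytic ratios were tested exactly, by permutation, with each of the 15400 ways to divide the libraries into 4 stages. The authors' DESeq2 needs counts and was not repeated. At values under 0.03 FPKM, log2 ratios between libraries did not fall in steps (3.87% to 8.58% in the fullest bin of width 0.1, over 66 pairs of libraries), so that depth is unknown and no counting error is given. Both tests were checked on simulated data.

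Genes named with values were the 6 catalytic genes, the highest and lowest Ortho vs. Pro difference of each class, the activators, inhibitor and core chaperones, name matches below the filter, 6 accessory genes and the 3 with the largest difference, Tap1, Tap2 and B2m. Psmd1 to Psmd5, Psmd10 and Zfand5 were named after their values were seen, and some genes counted in the lists are not reported here by name. Paaf1 was not matched in the table. Positions are from GENCODE M21 and promoters from RefSeq. Same-numbered libraries correlated at 0.156 to 0.319 between Baso, Poly and Ortho, every pair over 0.1, and at 0.00524 to 0.0968 between Pro and the others. This pairing comes from the values alone, not from the labels. Alternatives were the pseudocount, the filter, 3 scalings, the variance trend, the 2 stages alone, a replicate block and each library left out.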

Additional observations from a re-analysis of the deposited data

How the results depend on the processing

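Calls rest on 3 libraries a stage and on FPKM of unknown depth, and the cause of the changes below was not tested. Of 56 named differences, 38 kept their direction and side of the threshold under every alternative, and the counts of lower members against Pro and in Ortho vs. Poly stayed within 1.5 times except under the 2-fold rule. That rule left 6 lower and 0 higher in Baso vs. Pro, 13 and 0 in Poly vs. Pro, and 1 higher in Ortho vs. Pro. Higher members in Poly vs. Pro numbered 1 with no filter, 1 at the same sum and 5 without hemoglobin, and 1 to 3 with a library left out (1 without replicate 3 of Pro or of Poly). In Ortho vs. Pro they numbered 1 at the same sum, 6 without hemoglobin, 5 centred on the median, and 3 to 5 with a library left out (5 without replicate 1 of Pro). For Poly vs. Baso, lower members numbered 5 with no filter, 4 at the same sum, 5 without hemoglobin, 13 centred on the median, 4 with no trend, 15 with the replicate block in the later stages and 4 to 12 with a library left out (4 without replicate 3 of Baso or any replicate of Poly, 5 without replicate 2 of Baso); higher members numbered 1 with the 2 stages alone, 1 with the replicate block in all 12 libraries, 2 with that in the later stages and 0 to 1 with a library left out (1 without replicate 1 of Pro). In Ortho vs. Poly higher members numbered 2 without hemoglobin, 2 centred on the median, 2 with the 2 stages alone and 1 to 2 with a library left out (2 without replicate 1 of Ortho).

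For Ortho vs. Pro, the same sum reversed the immunoproteasome median (-0.05), Psmb9 (-0.05), Psmb10 (-0.12) and B2m (-0.30), and B2m also reversed without replicate 1 of Pro (-0.06, in a range up to 0.13 with a library left out). Scaling without hemoglobin reversed the median of activators and inhibitor (0.16), Psme1 (0.12), Psme2 (0.29), Psme4 (0.16), Psmg4 (0.26), Tap1 (0.37) and Tap2 (0.19), and centring on the median gave 0.09, 0.03, 0.21, 0.09, 0.20, 0.30 and 0.12 for the same. The replicate block in all 12 libraries changed 1 call of a named gene, Psmb9 in Ortho vs. Pro (0.30, adjusted p = 0.0351). The 3 catalytic ratios kept their direction and call under each pseudocount. Scaling of a library nearly cancels within a ratio, so that the scalings could not test the ratios.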
